A study of Danio rerio with 11 samples.

Results

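Phase II enzymes make foreign and endogenous compounds easier to excrete. Sulfotransferases add sulfate from an activated sulfate donor, UDP-glucuronosyltransferases add glucuronic acid from UDP-glucuronic acid, and glutathione S-transferases add glutathione to reactive electrophiles. Carbonyl and quinone reductases convert reactive carbonyls and quinones into hydroxyl compounds that can then be conjugated. In vertebrates many of these genes answer to the aryl hydrocarbon receptor, which binds planar aromatic hydrocarbons, or to Nrf2, a transcription factor of electrophile and oxidant defence. Liver and intestine are main sites of their activity.

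The 7 genes described here cover these roles: sult6b1 (sulfation), ugdh (supply of the glucuronidation substrate), gstp1.2, gstt1b and gsto2 (glutathione transfer), cbr1l (carbonyl reduction) and nqo1 (quinone reduction). They were found by gene symbol in the platform annotation, which gave 8 probe sets among 15502 (7 of 8793 gene symbols). The gene ugdh had 2 probe sets and the others had 1 each, and all 7 genes passed the filter on low values. The genes had been picked mainly because exposed and control embryos differed at 72 h post fertilization (hpf), so that contrast is given as a description, without a test. No probe, protein or promoter sequences were used here.

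Total RNA of all 30 zebrafish embryos in a cup of 100 ml was pooled for an array. For exposure, 250 mg of weathered oil emulsion, gathered from the shoreline after the Deepwater Horizon blowout, lined the cup for 48 h. Gulfport emulsion was tested from 0 to 48, from 24 to 72 and from 48 to 96 hpf, and Fort Morgan and Perdido Key emulsions from 24 to 72 hpf, with 1 array for each of these 5 exposures. Unexposed embryos in plain medium gave 1 control array at 48 hpf, and the older controls were 3 arrays at 72 hpf and 2 arrays at 96 hpf. The labels give no strain, genotype or sex, and do not say whether replicate controls came from separate cups or spawnings, so that p-values measure only the spread between these arrays.

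Values are log2 probe set signals after robust multi-array average (RMA) normalization, so that a difference of 1 is 2-fold. A signal of one probe set is not comparable with that of another, and only differences of a probe set between arrays are compared below. Whole-embryo RNA cannot tell more RNA per cell from more cells of a type. The array carried marker genes of liver (11 of 17 listed), intestine (8 of 10), exocrine pancreas (11 of 14), skeletal muscle (8 of 10), red blood cells (6 of 8), lens (3 of 5) and kidney tubule (4 of 5). All passed the filter on low values except for red blood cells (5 of 6 passed) and kidney tubule (3 of 4). Exocrine pancreas markers averaged a log2 signal of 5.40 in the 48 hpf control. Without detection calls it cannot be told whether they were expressed there.

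In all 5 exposed arrays every member lay above all controls of its age. At 72 hpf this held for 7 of 7 members in each of the 3 sites, beside 6.92% of all 9803 probe sets tested, a contrast that had itself chosen the genes and from which nothing is read. Gulfport embryos lay above control at both 48 and 96 hpf in 7 of 7 members, beside 15.8% of probe sets. Earlier results of these arrays were known when the genes were picked, so this count is not independent of the choice. The size of the difference varied between members and windows, from 0.27 for nqo1 at 48 hpf to 2.68 for sult6b1 in the Gulfport array at 72 hpf.

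**Figure D1:**
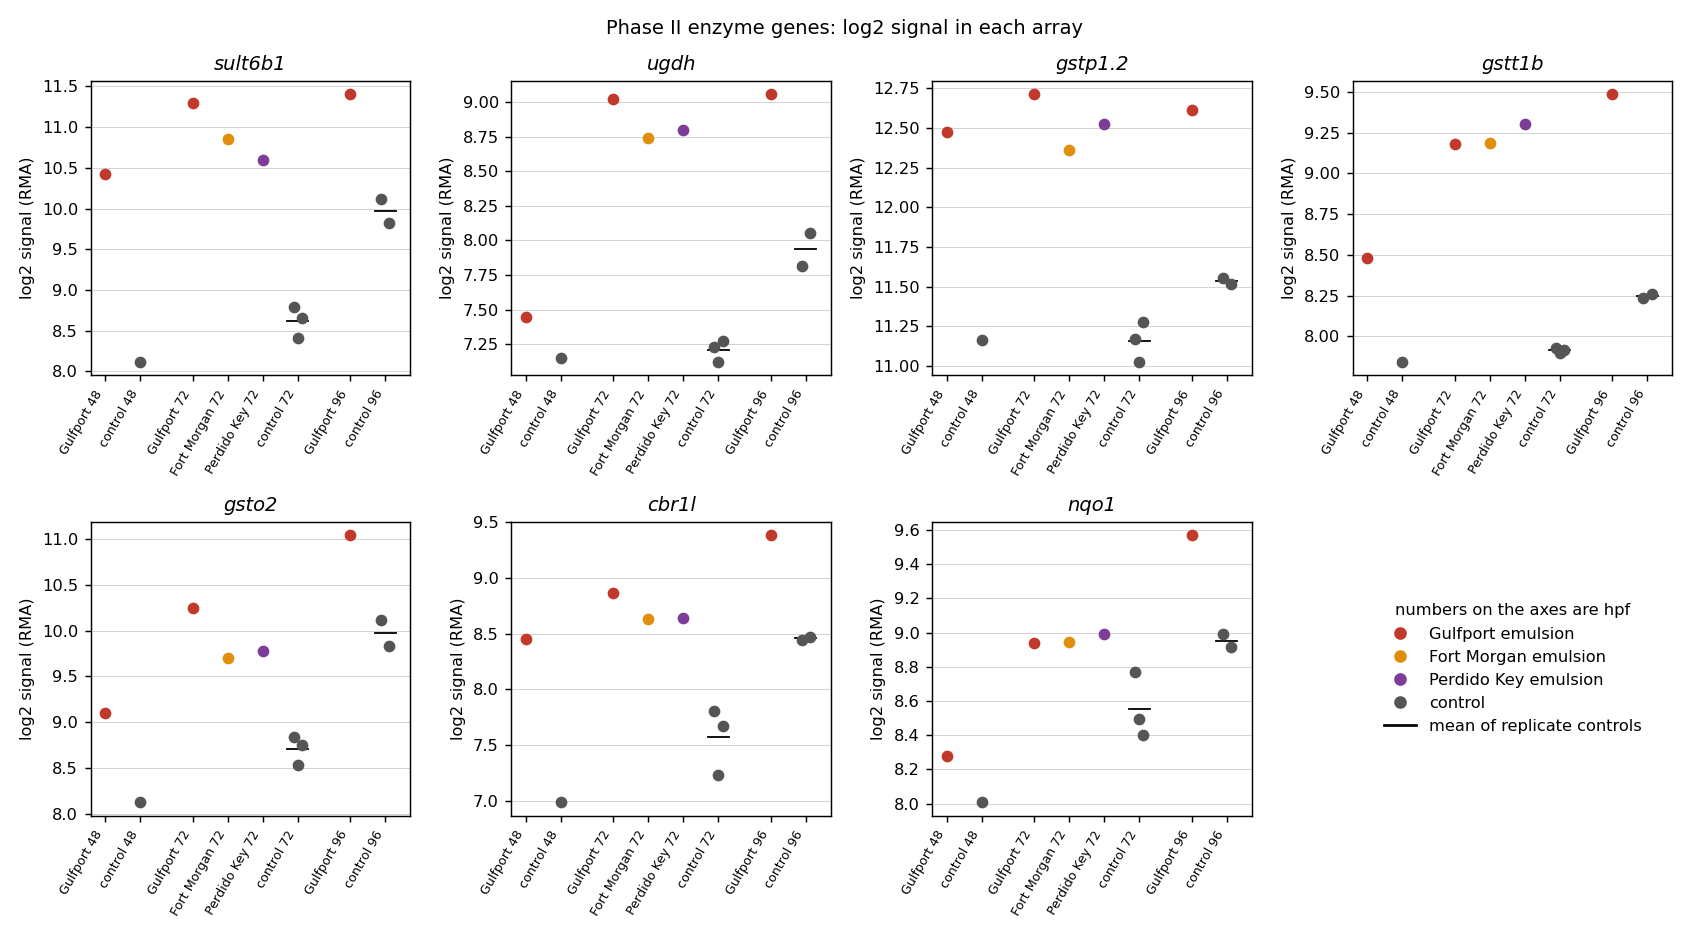
Log2 RMA signal (vertical axis, a scale of its own for each gene) in each of the 11 arrays, by exposure and age in hpf (horizontal axis). Points are arrays and black lines the mean of replicate controls. Every coloured (exposed) point lies above the grey control points of its age.

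The sulfotransferase gene sult6b1, of the cytosolic family that sulfates small molecules, differed most. At 48 hpf its log2 signal was 10.42 in Gulfport embryos and 8.12 in control embryos. At 72 hpf it was 11.29 in Gulfport, 10.85 in Fort Morgan and 10.60 in Perdido Key embryos, against 8.79, 8.41 and 8.65 in the 3 controls. At 96 hpf it was 11.40 in Gulfport embryos, against 10.11 and 9.83 in controls. The lowest exposed array at 72 hpf was 1.81 above the highest control. The mean difference at 72 hpf was 2.30 (4.92-fold), with means of 10.91 ± 0.35 in exposed and 8.62 ± 0.20 in control embryos (SD, n = 3 each). The difference at 48 hpf, 2.30 (4.94-fold), was the 4th largest of the 9803 probe sets tested at that age, and that at 96 hpf, 1.43 (2.70-fold), the 12th largest.

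The gene ugdh encodes UDP-glucose dehydrogenase, which makes the UDP-glucuronic acid that glucuronidation consumes and that also goes into glycosaminoglycans. Its difference varied most between the 3 Gulfport windows. At 48 hpf its log2 signal was 7.44 in Gulfport and 7.15 in control embryos, a difference of 0.29 (1.22-fold) that ranked 751st. At 72 hpf it was 9.02, 8.74 and 8.80 in Gulfport, Fort Morgan and Perdido Key embryos, against 7.23, 7.12 and 7.27 in controls. The exposed mean was 8.85 ± 0.15 and the control mean 7.21 ± 0.08 (SD, n = 3 each), a difference of 1.65 (3.13-fold), and no exposed array came within 1.47 of a control. At 96 hpf it was 9.06 in Gulfport embryos, against 7.82 and 8.06 in controls. The second, dimmer ugdh probe set differed by 0.26 at 48 hpf, 1.25 at 72 hpf and 1.05 at 96 hpf, the same order of windows.

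Among the glutathione S-transferases, gstp1.2 belongs to the pi class, which acts on electrophiles such as oxidation products. Its log2 signal was 12.48 in Gulfport and 11.17 in control embryos at 48 hpf, a difference of 1.31 (2.48-fold). At 72 hpf it was 12.71, 12.36 and 12.53 in Gulfport, Fort Morgan and Perdido Key embryos, against 11.17, 11.03 and 11.28 in controls, a mean difference of 1.37 (2.59-fold). At 96 hpf it was 12.61 in Gulfport embryos, against 11.55 and 11.52 in controls. The exposed arrays of all ages lay within 12.36 to 12.71, and the control arrays of all ages within 11.03 to 11.55. No exposed array of any age thus overlapped a control of any age, which also held for sult6b1 and gstt1b. The share of all probe sets with this order was not counted. The 72 hpf values had also helped choose the genes, so nothing is read from this order.

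The theta-class gene gstt1b had the tightest controls at 72 hpf. Its log2 signal at 72 hpf was 9.18, 9.19 and 9.30 in Gulfport, Fort Morgan and Perdido Key embryos, against 7.93, 7.90 and 7.92 in controls. The means were 9.22 ± 0.07 in exposed and 7.92 ± 0.02 in control embryos (SD, n = 3 each), a difference of 1.31 (2.48-fold). At 48 hpf it was 8.48 in Gulfport and 7.84 in control embryos, and at 96 hpf 9.49 in Gulfport embryos, against 8.23 and 8.26 in controls. The difference was thus smaller at 48 hpf (0.64) than in the later windows (1.26 in Gulfport at 72 hpf and 1.24 at 96 hpf). Each of these values rests on 1 exposed array.

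The omega-class gene gsto2, whose class is known in mammals for reducing dehydroascorbate and for thiol transfer, had signals of 10.25, 9.71 and 9.77 in Gulfport, Fort Morgan and Perdido Key embryos at 72 hpf, against 8.84, 8.54 and 8.76 in controls. The mean difference was 2.30-fold, and the Gulfport array stood 0.48 above the next exposed array. At 48 hpf it had 9.11 in Gulfport and 8.12 in control embryos, and at 96 hpf 11.04 in Gulfport embryos, against 10.11 and 9.83 in controls. Exposed arrays were high at each age, but the 72 hpf exposed range of 9.71 to 10.25 took in the control range at 96 hpf.

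The reductase gene cbr1l encodes a relative of carbonyl reductase 1, a short-chain dehydrogenase. It had log2 signals of 8.86, 8.63 and 8.64 in Gulfport, Fort Morgan and Perdido Key embryos at 72 hpf, against 7.81, 7.23 and 7.67 in controls. Controls varied more for this member than for any other (SD 0.30, n = 3), and the mean difference was 1.14 (2.21-fold). At 48 hpf it had 8.45 in Gulfport and 6.99 in control embryos, a difference of 1.47 (2.76-fold) that ranked 9th. At 96 hpf it had 9.38 in Gulfport embryos, against 8.44 and 8.47 in controls.

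The gene nqo1 encodes an NAD(P)H quinone reductase that takes quinones to hydroquinones in 1 step, and in mammals it is a textbook target of both the aryl hydrocarbon receptor and Nrf2. Its differences were the smallest of the 7. At 72 hpf it had 8.94, 8.95 and 8.99 in Gulfport, Fort Morgan and Perdido Key embryos, against 8.77, 8.49 and 8.40 in controls. The groups did not overlap, but the gap between the lowest exposed and the highest control array was 0.17, less than the control SD of 0.19 (n = 3). At 48 hpf it had 8.28 in Gulfport and 8.01 in control embryos, and at 96 hpf 9.57 in Gulfport embryos, against 8.99 and 8.91 in controls. The difference at 96 hpf, 0.62 (1.53-fold), was larger than the 0.40 at 72 hpf and the 0.27 at 48 hpf.

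The order of the members by difference changed with the window, while sult6b1 stood first in each. At 48 hpf it was followed by cbr1l (1.47), gstp1.2 (1.31), gsto2 (0.98), gstt1b (0.64), ugdh (0.29) and nqo1 (0.27). In the Gulfport array at 72 hpf the order was sult6b1 (2.68), ugdh (1.82), gstp1.2 (1.55), gsto2 (1.54), cbr1l (1.29), gstt1b (1.26) and nqo1 (0.39). At 96 hpf it was sult6b1 (1.43), gstt1b (1.24), ugdh (1.12), gstp1.2 (1.08), gsto2 (1.07), cbr1l (0.92) and nqo1 (0.62). Neighbours such as gstp1.2 and gsto2 at 72 and 96 hpf differed by less than the spread of their controls. In the Gulfport array a difference of at least 1 was reached by 3 of 7 members at 48 hpf, beside 0.265% of probe sets. At 96 hpf 5 of 7 reached it, beside 0.357%. These counts at 48 and 96 hpf are not independent of the choice of genes, since earlier results of the arrays were known. At 72 hpf the mean difference over the 3 sites was at least 1 in 6 of 7 members, beside 0.49% of probe sets. That contrast had chosen the genes, so nothing is read from its count. The 3 comparisons at 72 hpf share their controls, and no window was tested against 72 hpf because its values had chosen the genes. The Gulfport differences at 96 and 48 hpf were compared in the fit with 1 mean per group over all 11 arrays, in which lone arrays are assumed to vary like the replicate controls; this test was added after seeing the data. No member passed (limma adjusted p = 1 for each), beside 0.0102% of probe sets, and 3 of 7 members and 336 probe sets in all had an unadjusted p under 0.05. The 96 hpf difference minus the 48 hpf difference was 0.83 for ugdh (95% interval 0.28 to 1.37), 0.60 for gstt1b (0.14 to 1.05) and -0.87 for sult6b1 (-1.56 to -0.18), and for the other members the interval held 0.

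**Figure D2:**
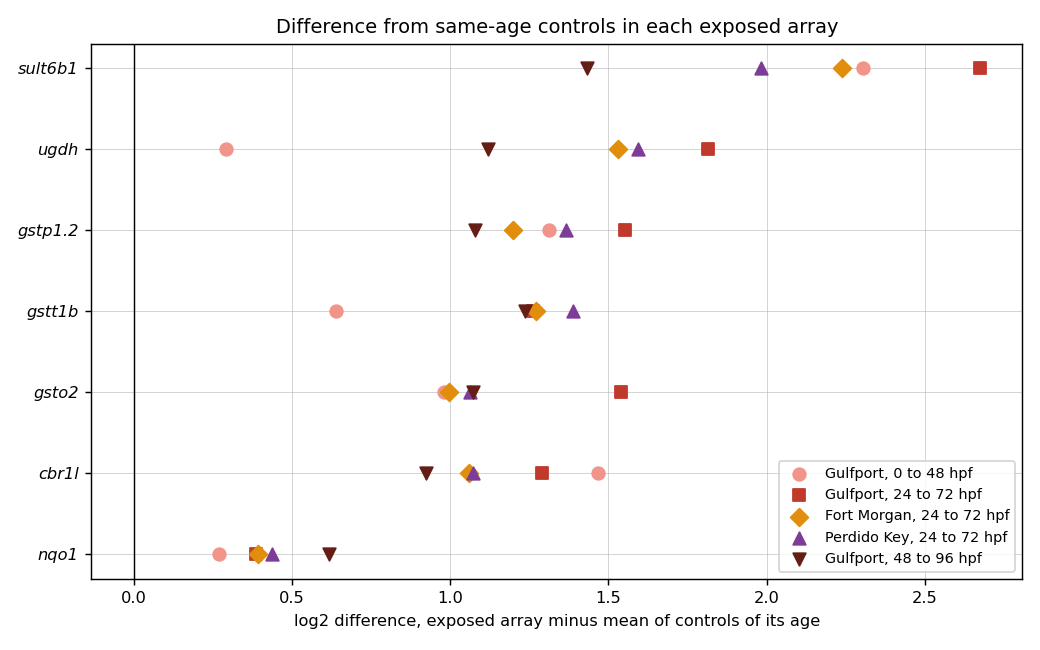
Log2 difference of each exposed array from the mean of the controls of its age (horizontal axis) for the 7 genes (vertical axis), with a symbol for each of the 5 exposed arrays. The gene ugdh runs from 0.29 in the Gulfport array at 48 hpf to 1.82 in that at 72 hpf, while nqo1 stays between 0.27 and 0.62.

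Late exposure was tested with the Gulfport array at 96 hpf against its 2 controls. The arrays compared differ from those at 72 hpf. The estimate of spread does use the 72 hpf controls, which had helped choose the genes. In this fit the spread comes from the controls at 72 and 96 hpf (3 residual degrees of freedom), and the lone exposed array is assumed to vary like them. Of 9803 probe sets 9 passed, all higher (0.0918%), and 1 of the 7 members was among them: gstt1b rose 2.36-fold (log2 difference 1.24, SE 0.13, adjusted p = 0.019 in limma). For sult6b1, ugdh and gstp1.2 limma gave an adjusted p = 0.0583, just past the threshold. The differences of sult6b1 (1.43, 95% interval 0.98 to 1.88), ugdh (1.12, 0.76 to 1.47) and gstp1.2 (1.08, 0.73 to 1.42) had intervals above 0. The differences of gsto2 (1.07, adjusted p = 0.127), cbr1l (0.92, adjusted p = 0.391) and nqo1 (0.62, adjusted p = 0.558) did not pass in limma either, and 7 of 7 members had an unadjusted p under 0.05 (454 probe sets did). The call of gstt1b was lost without control replicate 2 (adjusted p = 0.055) or 3 (0.057) at 72 hpf and without control replicate 1 (0.0539) or 2 (0.138) at 96 hpf. With a block for array class (arrays split by the lower quartile of their signals, added after seeing the data) sult6b1 (limma adjusted p = 0.0196) and gsto2 (0.047) passed beside gstt1b (0.043). With a variance trend and robust moderation gstt1b, sult6b1, ugdh, gstp1.2 and gsto2 passed (limma adjusted p = 0.00385 to 0.0408). Earlier results from these arrays were known when the genes were picked, so this window is not fully independent of the choice.

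The 3 emulsions at 72 hpf were compared pairwise, since differences between sites do not follow from the mean difference that chose the genes. No member passed in any of the 3 pairs (21 differences, limma, adjusted over all probe sets in each pair), and 1, 1 and 0 members had an unadjusted p under 0.05. Over all probe sets the pairs had 0, 6 (0.0612%) and 0 calls, and 558, 1026 and 470 probe sets at an unadjusted p under 0.05. By the values as deposited, Gulfport was the highest of the sites in 5 of 7 members and Perdido Key in the other 2, gstt1b and nqo1. The second ugdh probe set went otherwise, with 7.52 in Perdido Key, 7.30 in Gulfport and 7.22 in Fort Morgan embryos. The share of all probe sets with Gulfport highest was not counted, so nothing particular to these genes is read from this order. The Perdido Key array was the only one of the 3 in the class of low lower quartiles, and this order was not kept with array class as a block: Gulfport minus Perdido Key for cbr1l was 0.22 without and -0.06 with the block, and Fort Morgan minus Perdido Key for sult6b1 0.25 and -0.05. The gene sult6b1 was higher in Gulfport than in Perdido Key embryos by 0.69 (95% interval 0.17 to 1.21, limma adjusted p = 0.338), and by 0.39 with the block. The gene gsto2 was higher in Gulfport than in Fort Morgan embryos by 0.54 (0.06 to 1.03, limma adjusted p = 0.841) and than in Perdido Key embryos by 0.48 (-0.01 to 0.96, adjusted p = 0.483), and with the block by 0.54 and 0.20. For ugdh the interval of Gulfport minus Fort Morgan was -0.13 to 0.69, and for gstp1.2 -0.05 to 0.75. For gstt1b the 3 site differences lay between -0.13 and -0.01, with intervals that reach from -0.47 to 0.33. Those of nqo1 lay between -0.05 and -0.01, with intervals from -0.52 to 0.46. Site differences whose interval held 0 cannot be told from none with 1 array a site. The intervals above 0, of sult6b1 against Perdido Key and of gsto2 against Fort Morgan, are not adjusted for the number of probe sets, and neither difference passed.

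Control embryos alone were compared between ages. The 72 hpf controls had helped choose the genes. Values low by chance in them would favour the choice and also enlarge the difference to 96 hpf. The p-values for 96 against 72 hpf are thus not independent of the choice. Between 72 and 96 hpf 4 of 7 members rose, beside 6.29% of probe sets that were higher. The gene sult6b1 averaged 9.97 ± 0.20 (SD, n = 2) at 96 hpf and 8.62 ± 0.20 (SD, n = 3) at 72 hpf, a rise of 1.35 (SE 0.15, limma adjusted p = 0.000902). The gene gsto2 averaged 9.97 at 96 hpf and 8.71 at 72 hpf, a rise of 1.26 (SE 0.14, limma adjusted p = 0.000902). The rises of cbr1l and ugdh were 0.89 (limma adjusted p = 0.0158) and 0.73 (adjusted p = 0.00695). The differences of nqo1 (0.40, limma adjusted p = 0.0974), gstp1.2 (0.38, adjusted p = 0.0749) and gstt1b (0.33, adjusted p = 0.0681) did not pass. Without control replicate 2 at 96 hpf ugdh (adjusted p = 0.0692) and cbr1l (0.104) did not pass, and without replicate 1 cbr1l did not (0.0793). Without control replicate 1 at 72 hpf nqo1 passed (0.51, limma adjusted p = 0.0474), as did gstp1.2 with a variance trend and robust moderation (adjusted p = 0.0322).

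Between 48 and 72 hpf no member passed in limma, beside 17.9% of probe sets called in either direction, and 4 of 7 had an unadjusted p under 0.05. The same 72 hpf controls enter here, and values low by chance in them would make a rise from 48 hpf look smaller. A missing call is therefore not read as no change. The 72 minus 48 hpf differences were 0.59 for gsto2 (limma adjusted p = 0.0512), 0.58 for cbr1l (0.101), 0.55 for nqo1 (0.0567) and 0.50 for sult6b1 (0.106). Those of gstt1b, ugdh and gstp1.2 were 0.07, 0.06 and -0.01, and the 48 hpf control was 1 array. Without control replicate 2 at 72 hpf gsto2 (adjusted p = 0.0466) and cbr1l (0.0202) passed. In the same controls intestine markers had a median 96 minus 72 hpf difference of 1.48 (5 of 8 tested rose), exocrine pancreas markers of 3.54 (11 of 11 rose), kidney tubule markers of 1.07 (2 of 3 rose), liver markers of 0.08 (1 of 11 rose) and red blood cell markers of -0.84 (0 of 5 rose). The part of these tissues in the members' age differences was not tested.

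**Figure D3:**
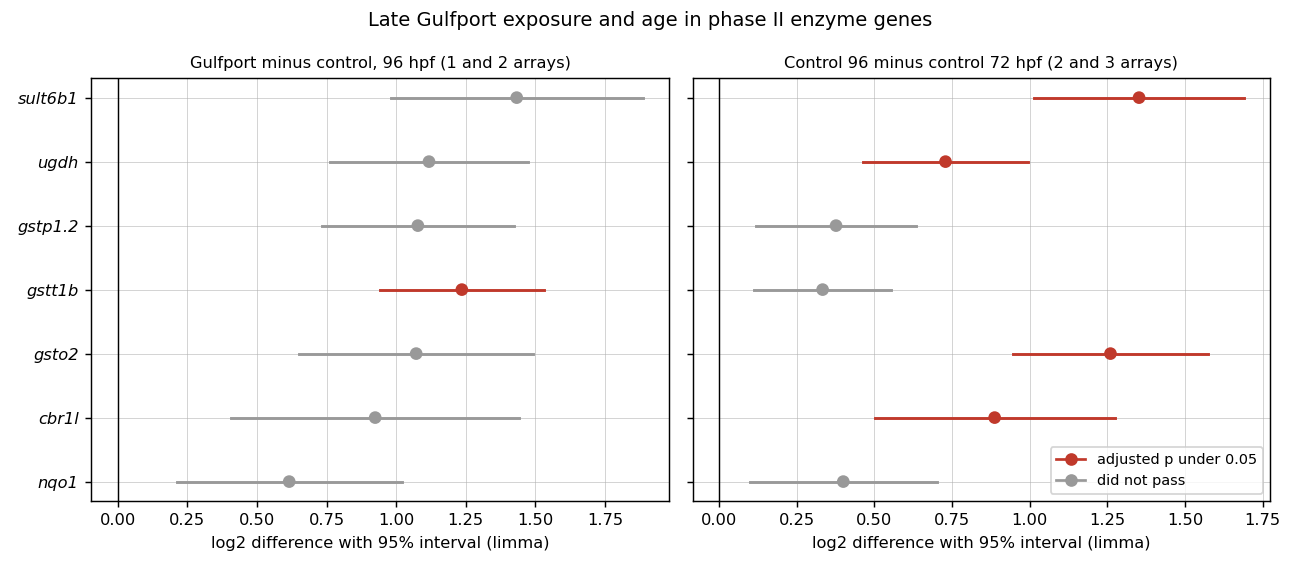
Log2 differences (points) with 95% limma intervals (lines) for the 7 genes. Left: Gulfport minus control at 96 hpf. Right: control at 96 hpf minus control at 72 hpf. Red marks an adjusted p under 0.05, which gstt1b reached on the left and sult6b1, ugdh, gsto2 and cbr1l on the right. The 2 controls at 96 hpf enter both panels. The 72 hpf controls of the right panel had helped choose the genes.

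Set beside these age changes, exposed embryos lay above older controls for some members. The Gulfport array at 48 hpf was above all 72 hpf controls in 6 of 7 members (not nqo1) and above both 96 hpf controls in 3 of 7, sult6b1, gstp1.2 and gstt1b. For sult6b1 the value at 48 hpf, 10.42 in Gulfport embryos, compares with 10.11 and 9.83 in controls at 96 hpf. All 3 exposed arrays at 72 hpf were above both 96 hpf controls in 5 of 7 members, the exceptions being gsto2 and nqo1. Exposed levels of sult6b1 were 10.42, 11.29 and 11.40 in Gulfport embryos at 48, 72 and 96 hpf, while control means were 8.12, 8.62 and 9.97. These are values side by side, with no test. The share of all probe sets with such an order was not counted, so the member counts are not read as unusual. The exposed and control values at 72 hpf had also helped choose the genes.

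Levels of tissue markers were set beside these values. Mean log2 signals of liver markers lay between 10.53 and 10.71 in exposed arrays and between 10.70 and 10.95 in controls at 72 hpf, and at 96 hpf at 10.90 in Gulfport embryos, against 10.84 to 11.06 in controls. Those of intestine markers lay between 8.04 and 8.22 in exposed arrays and between 7.83 and 8.14 in controls at 72 hpf, and at 96 hpf the Gulfport array, at 9.45, lay above both controls, at 9.27 and 9.32. Kidney tubule markers at 96 hpf were likewise at 7.95 in Gulfport embryos, against 7.77 and 7.91 in controls, and red blood cell markers at 7.80, against 7.57 and 7.65. Exocrine pancreas markers were lower, at 6.19 to 6.80 in exposed arrays and 7.05 to 7.43 in controls at 72 hpf. At 96 hpf they were at 10.38 in Gulfport embryos, against 10.69 to 10.87 in controls. Lens markers were also lower at 72 hpf, at 10.06 to 10.13 in exposed arrays, against 10.23 to 10.61 in controls. They were at 10.24 in Gulfport and 10.49 in control embryos at 48 hpf, and at 10.36, against 10.35 and 10.50, at 96 hpf. Skeletal muscle markers lay at 13.39 to 13.45 in exposed arrays and 13.39 to 13.43 in controls at 72 hpf. The median Gulfport minus control difference at 96 hpf was -0.06 for the tested liver markers, 0.09 for intestine markers and -0.29 for exocrine pancreas markers. Their part in the members' differences was not tested.

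The rest of the phase II pathway was approximated by a list of 157 further genes. The array carried 43 of these, and 34 passed the filter. The list was broad and held genes that are not phase II enzymes, such as eef1g and nat10. Its medians therefore do not describe the pathway alone. At 96 hpf the median Gulfport minus control difference of the 34 was 0.13, against 1.08 for the 7 members and -0.02 over all probe sets. The Gulfport array lay above both controls in 19 of the 34. The share of all probe sets with this order at 96 hpf was not counted, so nothing is read from that number. The genes gsto1 and ephx1 had passed the filter only through the Gulfport array of this contrast. For the other 32 the median was 0.12. The members had been picked mainly for their 72 hpf difference, with earlier results of the 96 hpf arrays known. A gap between them and the genes not picked was thus favoured in advance at both ages. At 72 hpf the 34 had a median of 0.03 and all probe sets one of -0.02. All exposed arrays lay above all controls in 7 of the 34 (6.92% of all probe sets) and below them in 3 (6.58%). At 48 hpf the median was 0.10 and none of the 34 differed by 1 or more upwards.

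By role, the values of the members' relatives were mixed. In sulfation, with 9 further genes tested, bpnt1, a phosphatase that clears the nucleotide left by sulfate transfer, differed by 0.87 at 72 hpf (7.46 ± 0.11 in exposed and 6.59 ± 0.18 in control embryos, SD, n = 3 each) and by 0.28 at 96 hpf (limma adjusted p = 1). The sulfotransferase genes sult1st4 and sult2st2 lay at -0.39 and -0.36 at 72 hpf, and papss1, which makes the sulfate donor, at -0.12. In glucuronidation only ugp2b, whose product makes the UDP-glucose that ugdh uses, was tested, at 0.35 at 72 hpf and -0.07 at 96 hpf. The single UDP-glucuronosyltransferase gene of the list on the array, ugt2a1, was dim and was not tested, with a log2 signal of 3.57 in Gulfport embryos, against 3.12 and 3.16 in controls, at 96 hpf.

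Of 7 further genes listed under glutathione transfer, none lay with all exposed above all controls at 72 hpf, beside 6.92% of all probe sets. The second theta gene gstt1a had 0.18, -0.07 and 0.04 at 48, 72 and 96 hpf, beside 0.64, 1.31 and 1.24 for gstt1b. The mu-class gene gstm.1 had -0.30, -0.21 and -0.06. At 72 hpf all its exposed arrays lay below all controls, beside 6.58% of all probe sets. The second omega gene gsto1 had -0.02 and 0.17 at 48 and 72 hpf, and 6.04 in Gulfport embryos, against 4.58 and 5.10 in controls, at 96 hpf (limma adjusted p = 0.14). It passed the filter only through that Gulfport array, which had to be high.

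Of 12 further reductase genes, 4 had all exposed above all controls at 72 hpf, beside 6.92% of all probe sets: aifm2, dhrs1, txnrd3 and blvrb. The gene aifm2, which encodes an NAD(P)H quinone reductase that acts on coenzyme Q, differed by 0.84, 0.89 and 0.79 at 48, 72 and 96 hpf (limma adjusted p = 0.196 at 96 hpf), each more than nqo1. The short-chain dehydrogenase gene dhrs1 differed by 0.24, 0.62 and 0.51, and the thioredoxin reductase gene txnrd3 by 0.16, 0.24 and 0.11. Differences of blvrb were 0.26, 0.16 and 0.18. Between 72 and 96 hpf in controls dhrs1 rose by 1.46 (limma adjusted p = 0.000201) and txnrd3 by 0.49 (adjusted p = 0.0172), while aifm2 differed by 0.28 (adjusted p = 0.179). These 4 genes are listed here by their 72 hpf values, which include the same controls. The other reductase genes overlapped at 72 hpf, with mean differences from -0.19 (cyb5r3) to 0.40 (dhrs13a.1). Among them dhrs13a.2 differed by -0.87, 0.20 and -0.23 at 48, 72 and 96 hpf. At 96 hpf ptgr1.1 had 9.78 in Gulfport embryos, against 9.58 and 8.43 in controls.

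**Figure D4:**
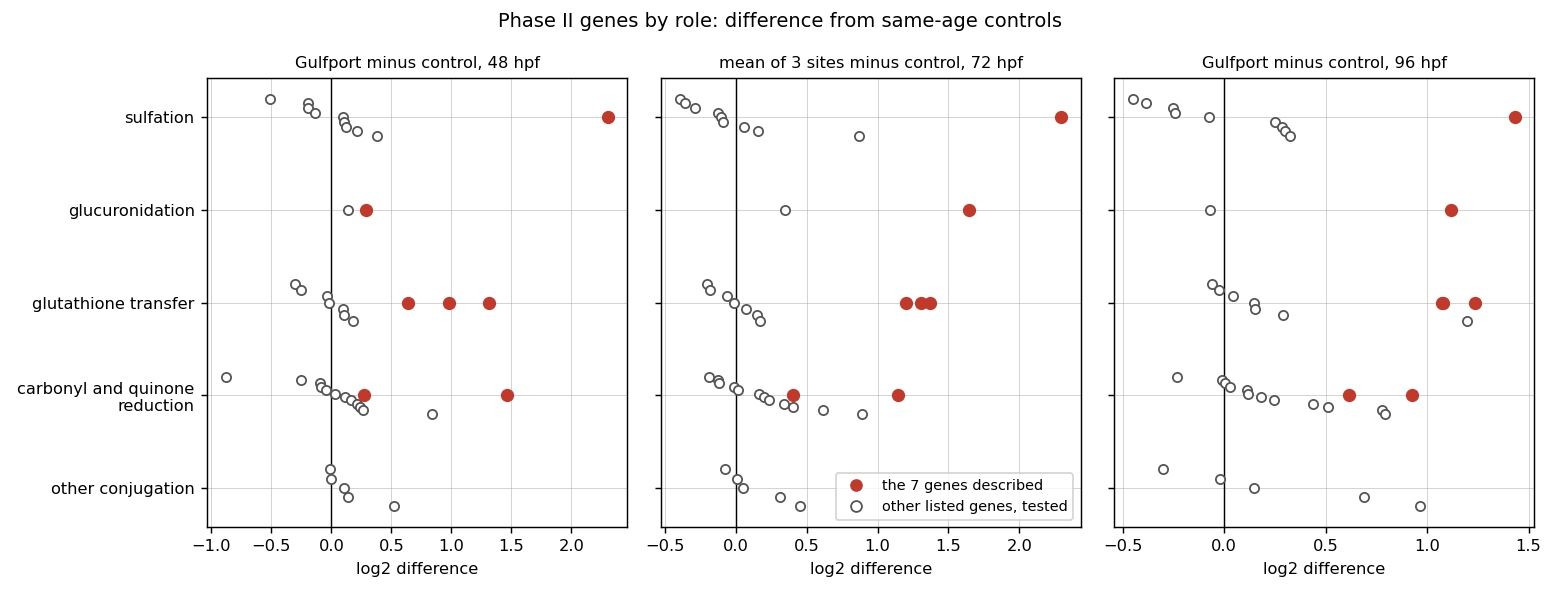
Log2 difference from same-age controls (horizontal axis) of each tested gene of the phase II list by listed role (vertical axis). Panels are 48 hpf (Gulfport, 1 array a side), 72 hpf (mean of 3 sites against 3 controls) and 96 hpf (Gulfport against 2 controls). Filled points are the 7 genes described, chosen mainly on the middle panel, and open points the 34 other tested genes, which centre near 0.

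Likeness of pattern was measured as Pearson's r of the differences from same-age control means over the 11 arrays, among 436 genes whose differences spanned at least 1. The arrays share controls within an age, so r is a description. Control arrays lie around 0 by construction, and the members had been picked for exposed values above controls. A high r with any other gene that was higher on exposure was thus favoured in advance, and no shared control of expression is read from it. The nearest genes to sult6b1 were gstp1.2 (0.99), the cytochrome P450 gene cyp1a (0.99) and the glutathione reductase gene gsr (0.98). Those to gstp1.2 were gsr (0.99), cyp1a (0.99) and aifm2 (0.99), those to gsto2 were gsr (0.99), gstp1.2 (0.98) and sqor (0.98), and those to cbr1l were sult6b1, cyp1a and gstp1.2 (each 0.97). The genes ugdh, gstt1b and nqo1 had other neighbours. The differences of nqo1 spanned less than 1, so it was not among the 436 genes and could not be named a neighbour of another member. Nearest to ugdh were zgc:66484 (0.98), cyp2k18 (0.98), which likewise differed little at 48 hpf (0.04), and gstt1b (0.96). Nearest to gstt1b were the cytochrome P450 gene cyp2y3 (0.99), the cytochrome b5 gene cyb5a (0.98) and the Nrf2 gene nfe2l2a (0.98), and nearest to nqo1 the carboxylesterase gene ces2b (0.94), gstt1b (0.90) and cyp2y3 (0.90). Among the members r was lowest between ugdh and cbr1l (0.78), which differed by 0.29 and 1.47 at 48 hpf.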

How the data were processed

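The authors made the deposited log2 signals of probe sets with RMA, per the submitters' processing notes; its version is not given in the sources used here. The method makes array distributions nearly equal (medians 6.36 to 6.42), so that a shift in total RNA would not show, and it compresses small differences of dim probe sets. No scanner files were used here, so there are no detection calls, and the number of arrays limits the precision. Of 15617 probe sets 115 controls were left out, and 9803 reached the filter, a log2 signal of 6 or more on at least 1 array, and were tested. Symbols came from the platform annotation, updated by Entrez identifier through a RefSeq table of assembly GRCz12tu (10711 of the 10795 probe sets with 1 symbol matched, 1 symbol changed); 135 probe sets had several symbols and 4572 none. The probe set of highest mean stood for a gene. No coordinates are given, because no build is named for the array.

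Differences were tested with limma 3.58.1 in R 4.3.3 (lmFit, eBayes), Benjamini-Hochberg adjusted over all tested probe sets, at 0.05. The 96 hpf, 96 against 48 hpf and site contrasts came from a fit with 1 mean per group over 11 arrays, the age contrasts from the 6 controls. The code was tested on simulated data. Figures used Python 3.11.15, pandas 2.3.3 and matplotlib 3.10.9. The members, the phase II list and the marker lists were chosen with earlier results of these data known. Named genes are the members, listed genes that passed at 96 hpf or were among the largest differences of their role, close relatives of a member by name, and the 3 nearest in pattern to each member. Genes named as relatives or by a count or range (gstt1a, gstm.1, papss1, blvrb, txnrd3, cyb5r3, dhrs13a.1) were chosen after their values were seen. Alternatives tried were no filter, median centring, a variance trend with robust moderation, the mean of all probe sets of a gene, leaving out each control, a replicate block and a block for array class.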

Additional observations from a re-analysis of the deposited data

How the results depend on the processing

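The number of members higher at 96 hpf depended on the setting: it was 1 as reported, 4 with no filter, 3 with median centring, 5 with a variance trend and robust moderation, 2 with the mean of all probe sets of a gene and 0 to 1 leaving out each control. With arrays split at the widest gap between their lower quartiles as a block it was 3; this split was added after seeing the data. All probe sets called there numbered 5 to 26, against 9. Of the site pairs, Gulfport against Fort Morgan had 0 to 3 calls over all probe sets. Gulfport against Perdido Key had 0 to 16 calls, against 6, and no setting called a member there. No setting called a member for the 96 against 48 hpf difference either. Between control ages 96 and 72 hpf members higher numbered 2 to 5 and all calls 382 to 788 leaving out each control, against 4 and 941, and all calls 1163 with a variance trend and robust moderation. Members higher between 72 and 48 hpf numbered 0 as reported, 2 with a variance trend and robust moderation, 1 with the mean of all probe sets and 0 to 2 leaving out each control. All calls there, in either direction, numbered 1176 to 1921 over the settings, against 1759. These member counts are therefore not read as unusual. The difference of gstp1.2 between 72 and 48 hpf, -0.01, ranged from -0.09 to 0.06. Where calls changed, the cause was not tested.

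Over the alternatives at 72 hpf, the contrast that chose the genes, the mean difference of nqo1 ranged from 0.33 to 0.51 and that of sult6b1 from 2.11 to 2.46, and ugdh was 1.45 with the mean of its probe sets. With the replicate number of the 72 and 96 hpf controls as a replicate block, 4 members and 784 probe sets in all passed. Deviations of equally numbered controls correlated at -0.05 and -0.06. The deviations of the 2 controls at 96 hpf mirror each other, so these values cannot show whether the number pairs the arrays.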

Other observations

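Among genes listed under other conjugation, outside the roles above, 5 were tested. Not all of them are conjugating enzymes of phase II. The epoxide hydrolase gene ephx1, whose product opens epoxides formed by cytochrome P450 enzymes, had a log2 signal of 6.44 in Gulfport embryos, against 5.43 and 5.52 in controls, at 96 hpf (difference 0.96, limma adjusted p = 0.14), and differed by 0.52 at 48 hpf and 0.45 at 72 hpf. It passed the filter on low values only through that Gulfport array. The histamine methyltransferase gene hnmt differed by 0.69 at 96 hpf (limma adjusted p = 0.249) and by -0.01 at 48 hpf and 0.31 at 72 hpf. The acetyltransferase-family genes nat10 and nat8l differed by -0.30 and 0.15 at 96 hpf, and the glycine methyltransferase gene gnmt by -0.02.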
